A study of Mus musculus with 9 samples.

Results

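The genes described here are 39 type I interferon-stimulated genes outside the *Ifit*, *Oas*, GTPase, IRF and STAT families, chosen by name from the 24421 genes of the count table. They are effectors and regulators such as *Isg15*, *Ifih1*, *Parp9*, *Slfn5*, *Ifitm3* and *Lgals3bp*. All 39 were found in the table, and all passed the filter on low counts in both fits. Their levels were measured by RNA sequencing of microglia, the resident macrophages of the brain, in 3 libraries labelled as littermate controls (WT), 3 labelled Fabry (FD) and 3 labelled mucolipidosis type IV (MLIV), with 22772260 to 37801159 counts per library (median 33255744).

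MLIV mice lack *Mcoln1* (*Mcoln1*-/-), which encodes a cation channel of the lysosome, and FD mice lack *Gla* (*Gla* y/-), which encodes the lysosomal enzyme alpha-galactosidase A. The strain is labelled C57CL6J for every library. The cells were live CX3CR1+ CD45+ CD11b+ cells sorted from brain without any treatment named in the labels, and they would also include other CX3CR1+ myeloid cells. *Mcoln1* mutants and their controls came from crosses of heterozygous mice, while the *Gla* mutation was bred as a homozygous line. The series gives the age as 4 months, and the methods of the study give a younger one. More mice per condition are named there than the 3 libraries, and whether animals were pooled is not given, so that a p-value here covers the spread among libraries alone, part of which could be technical.

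*Mcoln1* was counted first as a check of the labels. It had 1082 and 1517 reads in WT replicates 1 and 2, 1442, 1227 and 892 in FD replicates 1 to 3, and 0, 0 and 18 in MLIV replicates 1 to 3. The library labelled WT replicate 3 had 2 reads, which goes against its label. *Gla* was at 4.59, 8.17 and 10.8 CPM in WT (reads per 1000000 counted reads, with totals scaled by edgeR's TMM factors), at 4.82, 4.83 and 4.56 CPM in FD and at 11.7, 17.4 and 13.99 CPM in MLIV. Since transcripts of a disrupted *Gla* gene can still be counted, these values do not check the FD labels. Every comparison is therefore given with all 9 libraries as labelled and with 8 libraries, without the one labelled WT replicate 3.

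Microglial markers were high throughout, with the summed level of 9 marker genes between 20969 and 25977 CPM in all libraries. The summed level of 8 neutrophil markers was 25.3 to 54.8 CPM in WT, 1.34 to 5.04 CPM in FD and 142 to 266 CPM in MLIV. *Xist*, expressed from the inactive X chromosome of females, was at or below 4.12 CPM in WT and at 1358 to 1522 CPM in FD, so that sex and the FD genotype cannot be told apart. It was at 1449, 1027 and 4.00 CPM in MLIV replicates 1 to 3. *Ddx3y*, a gene of the Y chromosome, was at 89.8 to 118 CPM in WT, at or below 0.0622 CPM in FD and at 0, 26.6 and 76.7 CPM in MLIV, so that MLIV replicate 2 held reads of both genes. The genotype *Gla* y/- names males, and these values of the FD libraries go against it.

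Type I interferons bind the receptor IFNAR, whose kinases switch on a transcription factor complex that contains IRF9. The complex enters the nucleus and binds the interferon-stimulated response element (ISRE), which lies near the start of many antiviral genes. The products of these genes sense viral RNA, conjugate the ubiquitin-like protein ISG15, block the entry, copying or release of viruses, and limit the response itself. Microglia express many of them at a low level in the healthy brain and raise them in infection and neurodegeneration.

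The ISRE core, searched on both strands as GAAA, any 2 bases and GAAA, was looked for in RefSeq promoters of GRCm38.p6, each covering 250 bases before and 50 bases after a gene's start. Promoters of 28 of the 39 genes were in the table, with *Pyhin1* found under the name *Ifi209*. Of these 28, 10 genes held the core (35.71%), compared with 1079 of 27025 genes of the table (3.99%) and 1131 of 32851 promoters (3.44%). The gamma-activated sequence, searched as TTCNNNGAA on both strands, was in 6 of 28 (21.43%) and in 2582 of 27025 genes (9.55%). *Eif2ak2*, *Bst2* and *Ifitm3* held both, and in *Bst2* and *Ifitm3* matches of the pair overlapped. A match is a description of the letters and was not tested for binding.

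The stretches that hold the ISRE core are printed as a description. The genes were chosen as interferon-stimulated, and many such genes carry this element, so its share is no independent tie among them. The core as searched was absent from 18 of the 28 genes. Capitals mark the core, on either strand, and each of the first 6 stretches is written in the direction of the gene with 10 bases on either side. *Isg15* has 3 overlapping cores, of which the first begins 78 bases before its start (chr4:156200865-156200906, minus strand). *Bst2* has 2 from 130 bases before its start (chr8:71537577-71537612, minus strand), and *Rsad2* has 1 from 120 bases before (chr12:26456553-26456582, minus strand). The core lies 155 bases before the start of *Slfn5* (chr11:82951937-82951966, plus strand), 48 bases before that of *Slfn8* (chr11:83020839-83020868, minus strand) and 36 bases before that of *Trim30a* (chr7:104465210-104465239, minus strand).
Isg15: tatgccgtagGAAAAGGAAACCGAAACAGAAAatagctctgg
Bst2: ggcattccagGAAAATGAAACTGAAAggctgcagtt
Rsad2: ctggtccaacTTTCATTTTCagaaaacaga
Slfn5: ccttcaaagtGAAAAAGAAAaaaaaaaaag
Slfn8: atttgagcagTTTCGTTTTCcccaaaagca
Trim30a: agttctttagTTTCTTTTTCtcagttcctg

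A second RefSeq promoter of *Slfn8* holds the same core 136 bases before its start, and a second one of *Trim30a* holds a core 2 bases after its start. In the remaining holders the core came after the start, within the first 50 bases of the transcript, and is printed with at most 5 bases on either side. *Ifitm3* has 2 cores, the first from 2 bases after the start (chr7:141010716-141010742, minus strand), *Ddx58* has 1 from 2 bases after (chr4:40239809-40239825, minus strand), *Eif2ak2* 1 from 18 bases after (chr17:78882540-78882559, minus strand) and *Ifih1* 1 from 32 bases after (chr2:62646209-62646228, minus strand).
Ifitm3: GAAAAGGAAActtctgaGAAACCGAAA
Ddx58: agTTTCGATTTCctatg
Eif2ak2: gccggGAAAACGAAAcagaa
Ifih1: gaatcGAAACAGAAAccgat

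In the level of the 39 genes, the library labelled WT replicate 3 stood with the MLIV libraries. Their summed level was 1471, 1951 and 3837 CPM in WT replicates 1 to 3, 2086, 1657 and 1874 CPM in FD and 3767, 4410 and 4378 CPM in MLIV. On the scale of log2(CPM + 0.5), the median deviation of the genes from their own mean over all libraries was -0.61 and -0.49 in WT replicates 1 and 2, -0.17, -0.59 and -0.51 in FD, and 0.55, 0.96 and 0.84 in MLIV. The library labelled WT replicate 3 was at 0.57, within the range of the MLIV libraries and apart from the other WT and the FD libraries.

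Gene by gene, the library labelled WT replicate 3 exceeded both other WT libraries for 39 of 39 members, by a median of 1.85-fold over the higher of them (1.13-fold to 6.50-fold), as it did for 5266 of 15340 genes tested (34.3%). It lay within the MLIV range for 17 members, below it for 18 and above it for 4, where the shares of all genes were 58.5%, 20.2% and 21.3%. In 34 of 39 members (87.2%) the 4 highest libraries were the 3 MLIV libraries and this one, and the same held for 1467 of 15340 genes tested (9.56%). MLIV replicate 3 was the highest of all libraries for 18 members and MLIV replicate 2 for 15, while WT replicate 1 was the lowest for 18 and FD replicate 3 for 12. FD replicate 3 held reads of 12032 genes, against 15526 to 22932 in the other libraries.

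**Figure D1:**
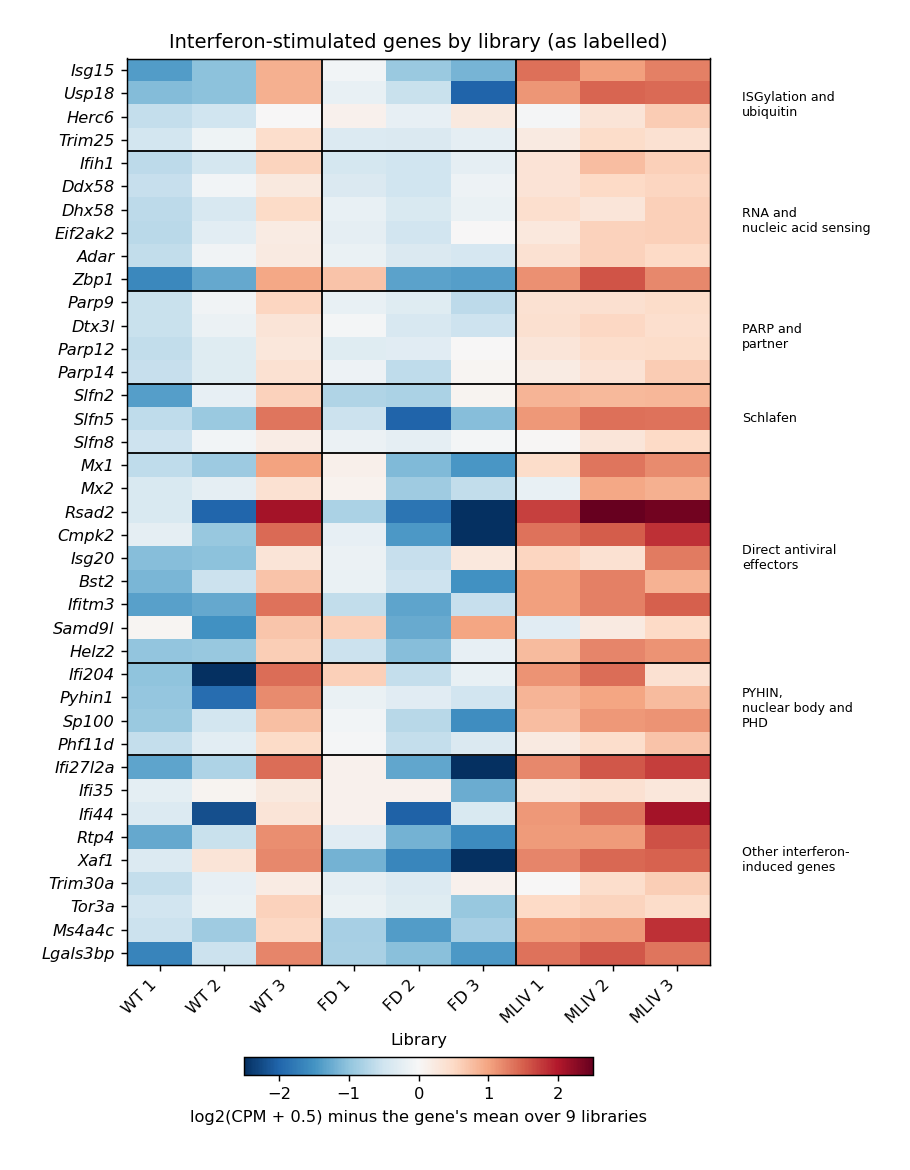
Levels of the 39 genes (vertical axis, grouped by function) in each of 9 libraries (horizontal axis, as labelled), as log2(CPM + 0.5) minus the gene's mean over all libraries. Red is above and blue below that mean, and the column labelled WT 3 is red for nearly every gene, as are the 3 MLIV columns.

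The functional groups shared this order of the libraries. In each of the 7 groups, the median deviation of every MLIV library and of the library labelled WT replicate 3 was above that of each other library. Over all 15340 genes tested the library medians lay close to 0, with the lowest in FD replicate 3 (-0.22).

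**Figure D2:**
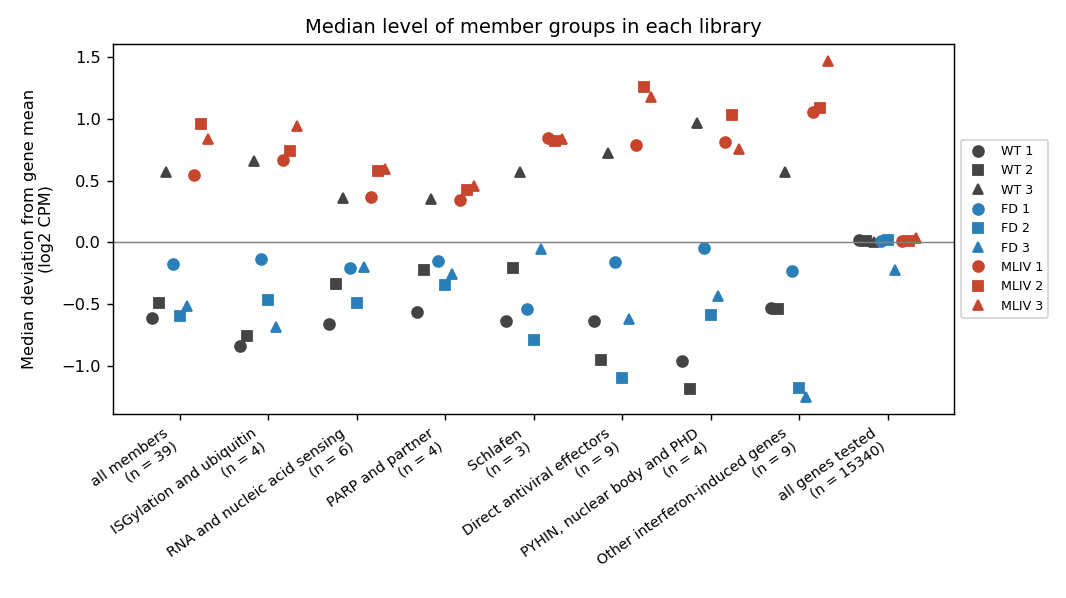
Median deviation from the gene mean (vertical axis, log2 CPM) for all members, 7 functional groups and all genes tested (horizontal axis), with 1 point per library and n giving the number of genes. The 3 MLIV points and the point labelled WT 3 sit above 0 in every member group, and the other 5 points sit below 0.

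To ask whether loss of *Mcoln1* was accompanied by a change of these genes, MLIV was compared with WT in edgeR's quasi-likelihood model, with p-values adjusted after Benjamini and Hochberg over all genes (edgeR adjusted p). With 9 libraries as labelled, no member passed an edgeR adjusted p of 0.05, as did no gene of the table (0% of 15340), and all 39 members had an edgeR adjusted p of 0.999. At an unadjusted p below 0.05, 17 members were higher and 0 lower (2.78% and 1.86% of all genes), and DESeq2 called 0 members and 14 of 15340 genes. All 39 log2 fold changes were above 0 (46.7% of all genes), with a median of 0.87 beside -0.03 over all genes. In 18 members the MLIV and WT libraries did not overlap (6.56% of all genes).

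With 8 libraries, in which 3 MLIV libraries are set against 2 WT libraries, 16 of the 39 members were called higher and 0 lower, where 1.55% of 17440 genes were called higher and 0.149% lower. Of the 16, 10 had a log2 fold change above 1 (1.04% of all genes, in either direction). The members' log2 fold changes ran from 0.40 to 3.42 with a median of 1.51, beside a median of -0.13 over all genes, and in 38 members no WT value reached the MLIV values (17.3% of all genes). The call of *Helz2*, *Ifitm3*, *Lgals3bp* and *Pyhin1* held without any 1 of the 8 libraries. The number of members called was 5 without WT replicate 1, 5 without MLIV replicate 2, 5 without MLIV replicate 3, 9 without MLIV replicate 1 and 30 without FD replicate 3. Calls over all genes moved as well, from 296 to 81 of 17290 without WT replicate 1 and to 1515 of 17460 without FD replicate 3. For the fits without an MLIV library they are not given, so those counts do not set the members apart from all genes. Of the original 16, 4 remained called without WT replicate 1, 11 without WT replicate 2, 5 each without MLIV replicates 2 and 3, 9 without MLIV replicate 1 and 15 without any 1 of the FD libraries. Besides the 4 named, *Ifih1* was the only member that kept its call without each MLIV library in turn.

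MLIV was also compared with FD, a comparison that contains no WT library and tests directly whether both mutants differ. With 9 libraries 2 members were called higher and 0 lower (0.717% and 0.548% of all genes), *Xaf1* and *Ms4a4c*. With 8 libraries, which changes the estimate of the spread, the genes tested and the scaling but not the libraries compared, 23 members were called higher and 0 lower (3.50% and 2.13% of all genes), 12 of them with a log2 fold change above 1 (2.52%, in either direction). MLIV and FD libraries did not overlap in 34 members with 9 libraries (16.0% of all genes). The median log2 fold change was 1.07 in either fit, and 38 of 39 were above 0 (51.9% of all genes with 9 libraries). *Samd9l*, an antiviral factor that restrains protein synthesis, was the exception at -0.20 ± 0.62 (SE, 9 libraries), with 15.3, 4.82 and 24.1 CPM in WT, 22.5, 5.91 and 29.7 CPM in FD and 12.1, 17.5 and 21.1 CPM in MLIV. Among 9 libraries, the removal of WT replicate 1 gave 12 members called, that of FD replicate 1 or 2 gave 1 and that of any 1 of the MLIV libraries gave 0. Calls over all genes went from 194 to 473 without WT replicate 1 and to 106 and 283 without FD replicates 1 and 2. They were 57, 52 and 54 without MLIV replicates 1 to 3. Among 8 libraries the number of members called was 9 without MLIV replicate 2 and 13 without MLIV replicate 3. Calls over all genes are not given beside these counts, so a change of the members alone cannot be read from them. Without FD replicates 1 and 2, 23 and 18 members were called, and calls over all genes went from 982 of 17440 to 728 of 17340 and 1115 of 15980.

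Both comparisons share the MLIV libraries, so that their calls are not independent. In FD against WT no member was called in either fit.

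**Figure D3:**
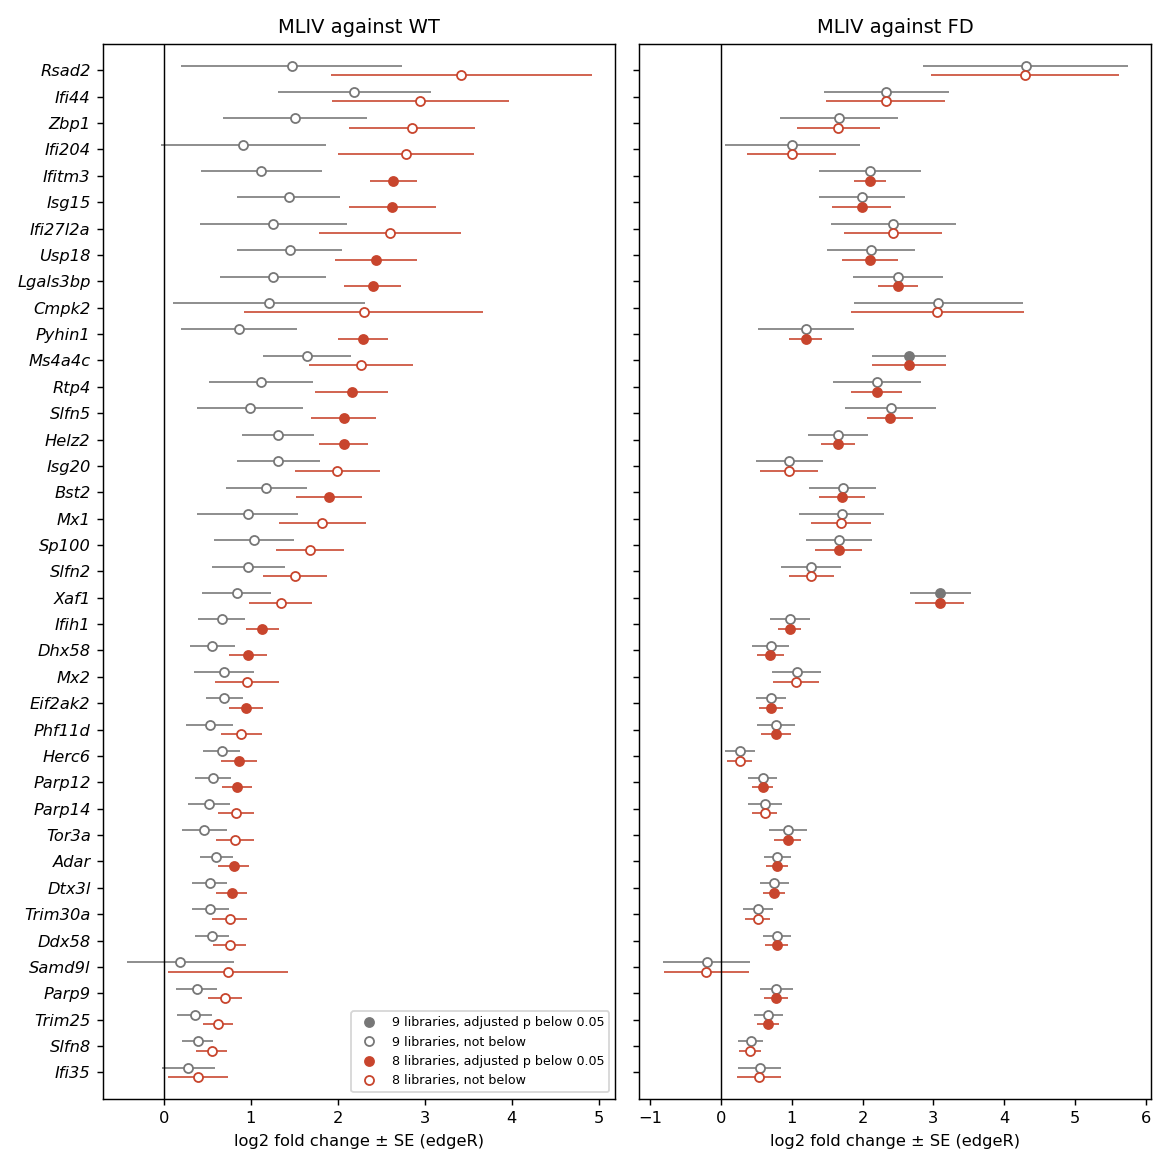
Log2 fold change with its standard error (horizontal axes) of each member (vertical axis, ordered by MLIV against WT with 8 libraries) for MLIV against WT on the left and MLIV against FD on the right, in grey with 9 and in red with 8 libraries. Filled points have an edgeR adjusted p below 0.05, which is 0 and 16 members on the left and 2 and 23 on the right, and every point but that of *Samd9l* on the right lies above 0.

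Of 4 genes of ISG15 conjugation, 3 were called higher against WT and 3 against FD with 8 libraries (1.55% and 3.50% of all genes). Their median log2 fold change was 1.65 against WT. *Isg15*, the ubiquitin-like modifier itself, was at 2.08, 2.85 and 12.1 CPM in WT replicates 1 to 3, at 5.94, 3.09 and 2.55 CPM in FD and at 17.2, 13.3 and 15.7 CPM in MLIV. All MLIV values were above all others, and the library labelled WT replicate 3 came next to them. With 8 libraries its log2 fold change was 2.63 ± 0.51 (SE) against WT (edgeR adjusted p = 0.0126) and 1.99 ± 0.42 against FD (edgeR adjusted p = 0.0119). *Usp18*, which removes ISG15 from proteins and dampens IFNAR signalling, was at 9.13, 9.59 and 37.2 CPM in WT, 17.4, 13.3 and 4.62 CPM in FD and 43.5, 55.3 and 54.3 CPM in MLIV. The groups again did not overlap, with log2 fold changes of 2.44 ± 0.47 against WT (edgeR adjusted p = 0.0304) and 2.11 ± 0.40 against FD (edgeR adjusted p = 0.0139). *Herc6*, the mouse ligase for ISG15, changed by 0.87 ± 0.20 against WT (edgeR adjusted p = 0.0424) and by 0.27 ± 0.18 against FD, where it was not called. *Trim25*, a ubiquitin ligase that acts on RIG-I in human cells, reached 0.63 ± 0.17 against WT, which was not called, and 0.67 ± 0.15 against FD (edgeR adjusted p = 0.0192).

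Of 6 genes that sense or edit RNA and other nucleic acids, 4 were called higher against WT and 5 against FD with 8 libraries (1.55% and 3.50% of all genes). Their median log2 fold change was 0.96 against WT. *Ifih1* encodes MDA5, a receptor for long double-stranded RNA, and was at 36.7, 42.7 and 86.3 CPM in WT, 43.0, 40.9 and 49.8 CPM in FD and 74.4, 99.8 and 88.8 CPM in MLIV. The library labelled WT replicate 3 fell among the MLIV libraries, and all other libraries were lower. Its log2 fold change was 1.14 ± 0.19 against WT (edgeR adjusted p = 0.0040) and 0.97 ± 0.16 against FD (edgeR adjusted p = 0.00224). *Dhx58* (LGP2), a helicase that tunes the other sensors, was at 17.8, 21.3 and 39.1 CPM in WT, 24.5, 21.5 and 24.9 CPM in FD and 37.9, 34.9 and 42.6 CPM in MLIV. WT replicates 1 and 2 and the FD libraries lay together below all MLIV values, and the fold changes were 0.97 ± 0.22 against WT (edgeR adjusted p = 0.0353) and 0.70 ± 0.19 against FD (edgeR adjusted p = 0.0457). *Ddx58* (RIG-I), the receptor for RNA with a triphosphate end, was at 45.8, 65.9 and 81.6 CPM in WT, 53.4, 48.8 and 62.7 CPM in FD and 87.9, 96.7 and 101 CPM in MLIV. MLIV exceeded every other library, but with 0.76 ± 0.19 against WT the gene was not called, while 0.79 ± 0.17 against FD was (edgeR adjusted p = 0.0130).

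*Eif2ak2* (PKR), the kinase that halts translation on double-stranded RNA, was at 74.3, 99.0 and 138 CPM in WT, 102, 85.5 and 120 CPM in FD and 143, 179 and 182 CPM in MLIV. *Adar*, which edits adenosines in double-stranded RNA and so hides it from MDA5, was at 95.4, 137 and 170 CPM in WT, 130, 113 and 110 CPM in FD and 190, 217 and 206 CPM in MLIV. Neither gene overlapped between MLIV and the other libraries, and WT replicate 1 was the lowest in both. With 8 libraries *Eif2ak2* changed by 0.95 ± 0.19 on the log2 scale against WT (edgeR adjusted p = 0.0184) and 0.71 ± 0.17 against FD (edgeR adjusted p = 0.0220). *Adar* changed in the same fit by 0.80 ± 0.18 against WT (edgeR adjusted p = 0.0304) and 0.79 ± 0.16 against FD (edgeR adjusted p = 0.00731). *Zbp1*, a sensor of Z-form nucleic acids that can trigger cell death, was at 4.59, 5.93 and 29.96 CPM in WT, 25.1, 5.65 and 5.49 CPM in FD and 33.9, 46.0 and 35.4 CPM in MLIV. The library labelled WT replicate 3 and then FD replicate 1 came closest to the MLIV range. With 8 libraries *Zbp1* had 2.86 ± 0.72 against WT and 1.66 ± 0.58 against FD and was not called.

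Among the ADP-ribosyltransferases and their partner, 2 of 4 genes were called higher against WT and 3 against FD with 8 libraries (1.55% and 3.50% of all genes). The median log2 fold change against WT was 0.81. *Parp9* and *Dtx3l* encode partners in 1 complex that modifies histones and viral proteins. *Dtx3l*, the ubiquitin ligase, was at 97.1, 129 and 180 CPM in WT, 138, 109 and 100 CPM in FD and 190, 205 and 192 CPM in MLIV, and *Parp9* was at 52.1, 73.0 and 112 CPM in WT, 68.0, 62.8 and 48.7 CPM in FD and 101, 102 and 107 CPM in MLIV. For *Parp9* the library labelled WT replicate 3 was the highest of all. *Dtx3l* changed by 0.78 ± 0.18 against WT (edgeR adjusted p = 0.0409) and 0.75 ± 0.16 against FD (edgeR adjusted p = 0.0122), and *Parp9* by 0.71 ± 0.19 against WT, not called, and 0.78 ± 0.17 against FD (edgeR adjusted p = 0.0158). The 2 genes lie head to head on chromosome 16 and share 334 exonic bases on opposite strands, and the counting used no strand, so that reads in the shared part cannot be assigned between them. *Parp12*, a mono-ADP-ribosyltransferase that blocks viral translation, was at 49.4, 61.2 and 92.2 CPM in WT, 61.4, 62.1 and 75.9 CPM in FD and 93.8, 103 and 103 CPM in MLIV. The log2 fold changes of *Parp12* were 0.85 ± 0.17 against WT (edgeR adjusted p = 0.0185) and 0.59 ± 0.15 against FD (edgeR adjusted p = 0.0332). *Parp14*, the most abundant of the 4 in CPM, was at 185, 223 and 355 CPM in WT, 252, 176 and 284 CPM in FD and 315, 354 and 426 CPM in MLIV, with 0.83 ± 0.20 against WT and 0.62 ± 0.18 against FD. It was not called, although no MLIV library overlapped with FD or with WT replicates 1 and 2.

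The Schlafen genes, whose products restrain proliferation and translation in immune cells, lie in 1 cluster on chromosome 11. *Slfn5* was at 24.6, 20.02 and 97.5 CPM in WT, 26.4, 9.17 and 18.2 CPM in FD and 81.8, 101 and 99.8 CPM in MLIV, and the library labelled WT replicate 3 lay among the MLIV libraries. With 8 libraries its log2 fold change was 2.07 ± 0.37 against WT (edgeR adjusted p = 0.0220) and 2.39 ± 0.33 against FD (edgeR adjusted p = 0.00191). Its neighbour *Slfn8*, 37.3 kb away, was at 122, 166 and 200 CPM in WT, 159, 151 and 169 CPM in FD and 178, 215 and 247 CPM in MLIV, with log2 fold changes of 0.56 ± 0.18 and 0.42 ± 0.16 and no call. *Slfn2*, which keeps T cells and monocytes quiescent in mice, had 1.51 ± 0.37 against WT and 1.27 ± 0.32 against FD and was not called. All these fold changes are from the fit of 8 libraries, and with 9 libraries no Schlafen gene was called in either comparison. Schlafen genes resemble each other in sequence, and reads may be split among them, as among members of the *Trim30*, *Ifi200*, *Phf11*, *Ms4a4* and *Ifi27* families.

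Direct antiviral effectors had the widest spread of fold changes, from 0.74 to 3.42 against WT with 8 libraries (log2, median 2.00). Of the 9 effectors, 3 were called higher against WT and 3 against FD (1.55% and 3.50% of all genes). *Ifitm3*, a membrane protein that keeps viruses from fusing with endosomes (chr7:141009590-141010744, mm10, minus strand, 2 exons in the counting annotation), was at 10.8, 11.3 and 73.3 CPM in WT, 18.3, 11.1 and 18.7 CPM in FD and 58.2, 68.6 and 80.5 CPM in MLIV. The libraries formed 2 blocks, with the one labelled WT replicate 3 inside the MLIV block and none between 18.7 and 58.2 CPM. The log2 fold change was 2.64 ± 0.27 against WT (edgeR adjusted p = 0.000186) and 2.11 ± 0.23 against FD (edgeR adjusted p = 5.86e-05), the smallest adjusted p of any member in either comparison. *Bst2* (tetherin), which holds budding virus at the cell surface, was at 10.7, 16.6 and 40.4 CPM in WT, 21.7, 16.9 and 8.17 CPM in FD and 50.1, 58.8 and 44.9 CPM in MLIV, with 1.90 ± 0.38 against WT (edgeR adjusted p = 0.0233) and 1.71 ± 0.32 against FD (edgeR adjusted p = 0.00864). *Helz2*, a helicase induced by interferon (chr2:181227615-181242027, mm10, minus strand), was at 12.03, 12.4 and 37.8 CPM in WT, 16.6, 11.4 and 21.1 CPM in FD and 42.7, 58.1 and 54.2 CPM in MLIV. WT replicates 1 and 2 differed by 1.03-fold in *Helz2* and 1.05-fold in *Ifitm3*. *Helz2* changed by 2.07 ± 0.28 against WT (edgeR adjusted p = 0.000868) and 1.65 ± 0.24 against FD (edgeR adjusted p = 0.000574).

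Of the 6 effectors that were not called, *Mx1* had the highest mean level in CPM. It encodes a dynamin-like GTPase that blocks influenza virus, of which common laboratory strains carry defective alleles. *Mx1* was at 16.5, 13.7 and 52.3 CPM in WT, 28.5, 11.9 and 9.11 CPM in FD and 35.7, 66.5 and 59.2 CPM in MLIV, and its log2 fold change was 1.83 ± 0.50 against WT with 8 libraries. Its neighbour *Mx2* was at 18.2, 20.3 and 31.2 CPM in WT, 25.4, 12.7 and 15.4 CPM in FD and 21.1, 47.0 and 44.4 CPM in MLIV, with 0.96 ± 0.37 against WT. *Rsad2* (viperin), which makes a nucleotide that ends viral RNA chains, and its neighbour *Cmpk2*, a nucleotide kinase 12.8 kb away, are named here after their values were seen. *Rsad2* was at 4.63, 1.19 and 27.8 CPM in WT, 3.33, 1.38 and 0 CPM in FD and 21.3, 37.2 and 34.9 CPM in MLIV. *Cmpk2* was at 3.70, 2.03 and 12.6 CPM in WT, 3.73, 1.31 and 0 CPM in FD and 12.1, 13.6 and 16.9 CPM in MLIV. Both separated the same libraries, and both had 0 reads in FD replicate 3, where 3 reads would amount to 0.0965 CPM. That library held reads of the fewest genes (12032), so that a 0 there can also be a missed transcript, which was not tested. Their log2 fold changes against WT were 3.42 ± 1.50 and 2.30 ± 1.38, and with these errors they were not called. *Isg20*, an RNA exonuclease, had 2.00 ± 0.49 against WT and 0.96 ± 0.41 against FD.

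**Figure D4:**
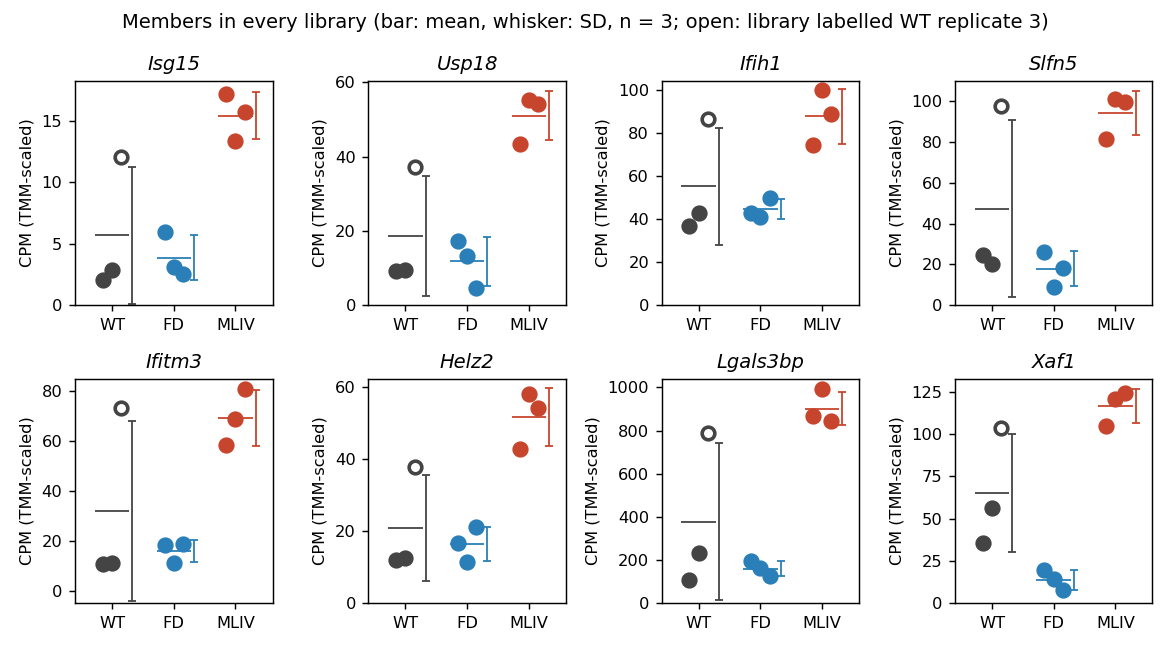
Levels of 8 members (vertical axes, TMM-scaled CPM from a linear scale) in the 3 groups (horizontal axes), with 1 point per library, the mean as a bar and the SD as a whisker (n = 3). The open point is the library labelled WT replicate 3, which in each panel lies far above the other WT points and near the MLIV points.

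In the group of nuclear proteins 1 of 4 genes was called higher against WT and 3 against FD with 8 libraries (1.55% and 3.50% of all genes). The median log2 fold change was 1.99 against WT. *Pyhin1* (chr1:173630859-173647928, mm10, plus strand) belongs to a family of interferon-induced proteins that bind DNA. It was at 14.1, 7.15 and 64.2 CPM in WT, 24.9, 23.1 and 19.9 CPM in FD and 51.0, 55.9 and 49.3 CPM in MLIV, with the highest value in the library labelled WT replicate 3. It changed by 2.29 ± 0.28 against WT (edgeR adjusted p = 0.000484) and 1.20 ± 0.23 against FD (edgeR adjusted p = 0.00737). In this gene all FD libraries were above WT replicates 1 and 2, with a log2 fold change of 1.10 ± 0.27 for FD against WT that was not called (edgeR adjusted p = 0.215). Its neighbour *Ifi204*, 99.4 kb away, encodes a mouse DNA sensor and was at 17.2, 3.63 and 93.0 CPM in WT, 53.2, 23.0 and 30.5 CPM in FD and 76.4, 93.1 and 45.5 CPM in MLIV. WT replicates 1 and 2 differed by 4.73-fold and MLIV overlapped with FD, and the gene was not called. *Sp100*, a component of nuclear bodies that silence viral genomes, and *Phf11d*, a PHD finger protein, were called against FD only, at 1.66 ± 0.34 (edgeR adjusted p = 0.0221) and 0.78 ± 0.21 (edgeR adjusted p = 0.0408), beside 1.69 ± 0.39 and 0.89 ± 0.24 against WT.

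The remaining 9 genes have varied roles, and 2 were called higher against WT and 5 against FD with 8 libraries (1.55% and 3.50% of all genes). Their median log2 fold change against WT was 2.16. *Lgals3bp*, a secreted glycoprotein that binds galectins (chr11:118392752-118401931, mm10, minus strand), was at 107, 231 and 790 CPM in WT, 192, 162 and 123 CPM in FD and 869, 991 and 846 CPM in MLIV. It took 19.3% to 23.1% of the reads of all members in the MLIV libraries, 6.59% to 11.9% in FD and in WT replicates 1 and 2, and 20.6% in the one labelled WT replicate 3. Its log2 fold change was 2.40 ± 0.33 against WT (edgeR adjusted p = 0.00549) and 2.496 ± 0.28 against FD (edgeR adjusted p = 0.000797). *Rtp4*, which escorts membrane receptors to the cell surface, was at 8.56, 14.6 and 49.0 CPM in WT, 17.7, 9.26 and 6.90 CPM in FD and 45.3, 45.3 and 65.8 CPM in MLIV. It rose by 2.16 ± 0.42 against WT (edgeR adjusted p = 0.0242) and 2.20 ± 0.36 against FD (edgeR adjusted p = 0.0042). *Tor3a*, an ATPase of the endoplasmic reticulum, was at 59.1, 73.6 and 124 CPM in WT, 74.0, 67.0 and 42.6 CPM in FD and 118, 123 and 114 CPM in MLIV, and was called against FD only (0.94 ± 0.19, edgeR adjusted p = 0.00896). *Trim30a*, which limits NF-kB signalling in mice, was at 108, 141 and 188 CPM in WT, 139, 128 and 175 CPM in FD and 165, 222 and 248 CPM in MLIV. It was not called, with 0.76 ± 0.20 against WT and 0.52 ± 0.18 against FD. *Ifi27l2a*, *Ifi35* and *Ifi44* were not called either, with log2 fold changes of 2.60, 0.40 and 2.95 against WT.

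*Ms4a4c* and *Xaf1* were the members called between MLIV and FD with all 9 libraries. *Ms4a4c*, a membrane protein of the family of the B cell antigen CD20, was at 2.70, 2.01 and 6.12 CPM in WT, 2.08, 1.25 and 2.08 CPM in FD and 9.08, 9.29 and 15.7 CPM in MLIV. Its log2 fold change was 2.65 ± 0.53 (edgeR adjusted p = 0.0363), and the call was lost without FD replicate 1 or 2 or any 1 of the MLIV libraries (edgeR adjusted p up to 0.143). *Xaf1* encodes a protein that binds the apoptosis inhibitor XIAP (chr11:72301629-72313733, mm10, plus strand). It was at 35.3, 56.0 and 104 CPM in WT, 19.5, 14.1 and 7.40 CPM in FD and 105, 121 and 124 CPM in MLIV. All FD libraries were below all WT libraries and all MLIV libraries above them, with the library labelled WT replicate 3 just under the lowest MLIV library. MLIV exceeded FD by 3.09 ± 0.43 with 9 libraries (edgeR adjusted p = 0.00924) and 3.09 ± 0.34 with 8 (edgeR adjusted p = 0.000696). The call with 9 libraries was lost without FD replicate 3 or any 1 of the MLIV libraries (edgeR adjusted p up to 0.0752), and with 8 libraries it held without any 1 of them. Of the neutrophil markers, 5 of 8 were also called higher in MLIV than in FD with 9 libraries and 6 of 8 with 8 (0.717% and 3.50% of all genes). Their sum was 54.8 CPM in WT replicate 2 and 50.9 CPM in the library labelled WT replicate 3, while both genes were higher in the latter. The part of neutrophils in these values was not tested.

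FD microglia were set against WT to ask whether a lysosomal storage disease with little involvement of the brain changed these genes. No member was called with 9 or with 8 libraries, where 0.339% and 0.310% of all genes were called in either direction. At an unadjusted p below 0.05, 1 member (*Xaf1*) was lower with 9 libraries (3.12% of all genes), and 4 were higher and 1 lower with 8 (2.88% and 1.31%). Among the members DESeq2 called *Xaf1* alone, in either fit, beside 173 of 15340 genes with 9 libraries and 126 of 17440 with 8. The median log2 fold change was -0.31 with 9 libraries and 0.16 with 8, beside -0.08 and -0.12 over all genes. With 8 libraries it was -0.05 without WT replicate 1 and -0.02 without FD replicate 1, so that its sign changed with single libraries. Without overlap between groups were 1 member with 9 libraries (*Xaf1*, lower, 5.76% of all genes lower) and 7 with 8 libraries, of which 6 were higher (9.07%) and *Xaf1* lower (9.04%). *Xaf1* differed by -2.25 ± 0.42 with 9 libraries (edgeR adjusted p = 0.0709) and -1.74 ± 0.35 with 8 (edgeR adjusted p = 0.143). It was called without WT replicate 1 in the former (edgeR adjusted p = 0.0229, range of the adjusted p over the alternatives tried 4.81e-07 to 0.437) and without FD replicate 1 or FD replicate 3 in the latter, where *Pyhin1* was called too without FD replicate 3.

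*Xaf1* lies 1.07 Mb from *Nlrp1b* on chromosome 11, a sensor gene known to differ widely between mouse strains. *Nlrp1b* was at 43.7, 43.6 and 44.3 CPM in WT, 264, 178 and 273 CPM in FD and 42.6, 40.3 and 55.1 CPM in MLIV. The FD libraries stood apart in both neighbours, in opposite directions, and an effect of the genotype at *Gla* and of a chromosome segment carried along with the FD line cannot be told apart.

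Levels varied widely among the members when divided by transcript length. In CPM per kb, *Lgals3bp* was the highest with a mean of 221 over all libraries, followed by *Ifitm3* at 60.2, *Slfn2* at 45.2 and *Trim30a* and *Slfn8* at 44.6 and 44.5, and *Ifi44* was the lowest at 1.66. Members at a low level in FD had the larger fold changes of MLIV against WT with 8 libraries. Across the 39 genes, the level in FD, as log2(CPM per kb + 0.1), and the log2 fold change had a Pearson correlation of -0.53 and a Spearman correlation of -0.478, given without a p since genes of 1 pathway are not independent and all points come from the same libraries. The genes with and without the ISRE core as searched had similar medians, 1.52 for 10 genes and 1.43 for 18. *Helz2*, *Xaf1* and *Phf11d* of the latter hold GAAACGAAAC, which the search does not count. *Adar* and, on the opposite strand, *Ifi44* hold the same letters but for the last, and further near matches were not counted. The split therefore covers the letters searched and does not set apart genes with and without such an element.

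**Figure D5:**
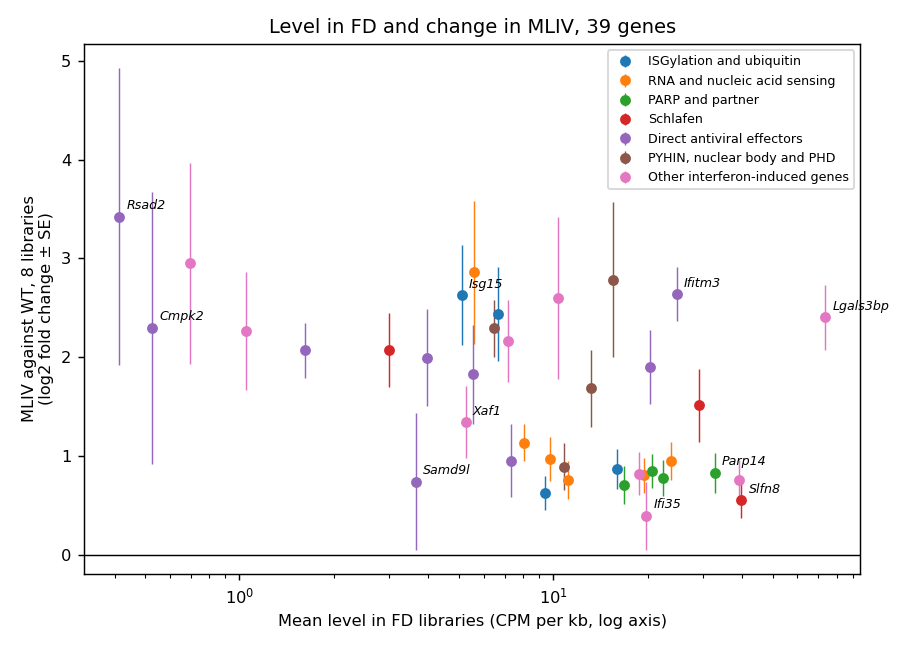
Mean level in the FD libraries (horizontal axis, CPM per kb, log axis) against the log2 fold change of MLIV against WT with 8 libraries and its standard error (vertical axis), with 1 point for each of 39 genes, coloured by function. *Lgals3bp*, *Ifitm3*, *Ifi204* and *Ifi27l2a* lie above 10 CPM per kb with a log2 fold change above 2, whereas most other genes above 10 CPM per kb lie below 1.

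Other genes of the pathway were counted from lists named with the members. Of 20 genes of the *Ifit*, *Oas* and GTPase families, 6 were higher and 0 lower in MLIV than in WT with 8 libraries (1.55% and 0.149% of all genes). They were led by *Ifit1* (3.06 ± 0.38 on the log2 scale, edgeR adjusted p = 0.000488), *Ifit3b* (2.97 ± 0.44) and *Ifit2* (3.24 ± 0.39). Against FD, 7 were higher and 1 lower (3.50% and 2.13% of all genes). With 9 libraries 0 of 20 were called against WT (0% of all genes), and 0 higher and 1 lower against FD (*Irgm2*, with 0.717% and 0.548% of all genes). The interferon genes themselves were close to 0, with *Ifnb1* at 6, 0 and 24 reads in WT, 0, 14 and 0 in FD and 0, 2 and 2 in MLIV. Of 11 NF-kB targets 1 was called higher against WT with 8 libraries, the chemokine *Ccl3* (1.70 ± 0.24, edgeR adjusted p = 0.00124), and 1 against FD (1.55% and 3.50% of all genes). In bulk libraries, a larger share of cells that express these genes and a higher level per cell cannot be told apart.

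Markers of other myeloid cells did not follow 1 pattern. The summed neutrophil markers were 50.9 CPM in the library labelled WT replicate 3, below the 54.8 CPM of WT replicate 2 and below all MLIV libraries, while the members were at the MLIV level in that library. The summed level of 6 markers of border macrophages was 268 and 55.9 CPM in WT replicates 1 and 2, 54.3 to 257 CPM in FD and 191 to 267 CPM in MLIV, against 508 CPM in the library labelled WT replicate 3. Monocyte markers, 6 in all, summed to 18.3 to 41.6 CPM in WT, 17.6 to 32.1 CPM in FD and 36.2 to 43.3 CPM in MLIV. The part of these cells in the levels of the members was not tested. Beside *Xist* at 1449, 1027 and 4.00 CPM in MLIV replicates 1 to 3, the median deviation of the members was 0.55, 0.96 and 0.84, and the part of sex in the levels was not tested.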

How the data were processed

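The authors prepared libraries from sorted microglia with the SMARTer stranded Pico kit, mapped them to mm10 (STAR 2.5.1) and, per the file headers, ran featureCounts 1.4.6-p3 once for 21 libraries, 9 of which are analysed here, with no option for strand or read pairs. The deposited table holds raw counts of 24421 genes. Tables of the authors' own comparisons, with signal, log2 fold change, score and p-value columns that the authors made with DESeq2, were not used. Per-sample columns of the count table left out numbered 0.

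Genes were kept with edgeR's filterByExpr (15340 of them in the fit of 9 libraries and 17440 in that of 8). TMM factors ran from 0.921 to 1.15. A robust quasi-likelihood model of edgeR 4.0.16 (R 4.3.3) estimated a mean for each group, with Benjamini-Hochberg adjustment over all genes tested. Calls need an adjusted p below 0.05 and no minimum fold. The SE was obtained as the log2 fold change over the root of F. CPM use the 9-library factors, and per kb divides by the exonic length in the count table. The fit was tested on simulated data, the outcome of which is not given here. The 39 genes, the lists and the choice to leave out the library labelled WT replicate 3 were made with earlier results of these data known. Members called in any comparison were given library by library (the 20 with the smallest p, the rest as fold changes), as was the most abundant uncalled member of each functional group. Alternatives were DESeq2 1.42.0, RLE factors, library totals, other count filters, only the 2 groups compared, the replicate number as a block, and the removal of each library. Reads of PCR-amplified libraries are not independent molecules, and the limit of 3 counts covers counting error only. Results that need an item withheld for evaluation are not reported here.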

Additional observations from a re-analysis of the deposited data

Results flagged for a closer look

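*Xaf1* and *Ms4a4c* differed between both mutants themselves. With all 9 libraries MLIV exceeded FD by 3.09 on the log2 scale in *Xaf1* and by 2.65 in *Ms4a4c*, in the direct test of MLIV against FD. Every MLIV library was above every FD library in either gene, as in 34 of 39 members and 16.0% of all genes. Both calls were lost without any 1 of the MLIV libraries. For *Xaf1* the distance was made on both sides of WT, with a log2 fold change of 0.84 for MLIV against WT and -2.25 for FD against WT, neither of them called by edgeR. For *Ms4a4c* these were 1.65 and -1.0. Without the library labelled WT replicate 3 they were 1.34 and -1.74 for *Xaf1* and 2.27 and -0.38 for *Ms4a4c*, again not called by edgeR. DESeq2 called *Xaf1* in FD against WT in either fit (DESeq2 adjusted p = 4.81e-07 with 9 libraries and 0.000113 with 8). It also called *Xaf1* in MLIV against WT with 8 libraries.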

How the results depend on the processing

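Leaving out each library in turn from the fit of 9, the members called ranged from 0 to 16 for MLIV against WT, 0 to 1 for FD against WT and 0 to 23 for MLIV against FD, and the median log2 fold change from 0.55 to 1.51 for MLIV against WT and from -0.57 to 0.16 for FD against WT, where it changed sign without the library labelled WT replicate 3. The calls over all genes ranged from 0 to 296, from 37 to 77 and from 52 to 982 in the same order. From the fit of 8 the members called ranged from 5 to 30 for MLIV against WT, 0 to 2 for FD against WT and 9 to 28 for MLIV against FD, and the median log2 fold change of FD against WT from -0.05 to 0.37. For MLIV against WT, 296 calls over all genes became 81 without WT replicate 1 and 1515 without FD replicate 3. For MLIV against FD, 982 became 728 without FD replicate 1 and 1115 without FD replicate 2. For MLIV against FD with 9 libraries, 2 calls became 23 with DESeq2, 5 with library totals, 8 with no filter on low counts, 10 with at least 10 counts in every library and 23 with only the 2 groups compared. Over all genes, 194 calls of 15340 became 1498, 548, 637 of 23230, 600 of 11090 and 699 of 13950, in the same order. For MLIV against WT with 8 libraries, 16 became 30 with DESeq2, 10 with library totals, 35 with no filter and 32 with only the 2 groups. Here the calls over all genes went from 296 of 17440 to 717, 298, 683 of 23220 and 1164 of 15650. For FD against WT 0 became 1 with DESeq2 in either fit and 1 with at least 10 counts (9 libraries), each time *Xaf1*, and 4 with no filter (8 libraries: *Zbp1*, *Ifi204*, *Pyhin1* and *Xaf1*). Among all genes, 52 calls with 9 libraries became 173 with DESeq2 and 51 with at least 10 counts. With 8 libraries, 54 became 126 with DESeq2 and 208 with no filter. The causes were not tested.

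All 39 members stayed above 0 in MLIV against WT and 38 in MLIV against FD, where *Samd9l* was below 0, under TMM, RLE and library totals. Library totals moved the median of all genes by -0.20 in MLIV against WT with 8 libraries.

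Samples of the same number did not deviate together (correlations -0.30 to 0.19). The WT deviations include the library that goes against its label, so this check cannot exclude a pairing by number. Between FD and MLIV the correlations were 0.0065, -0.055 and -0.075 for replicates 1 to 3. With the replicate number as a block, 17 members were called for MLIV against WT and 26 for MLIV against FD with 8 libraries, and 1 for MLIV against FD with 9. The calls over all genes were 471 and 1381 of 17440, and 87 of 15340.

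Over single members and alternatives, 3147 values kept their direction and their side of the threshold, 120 lost and 248 gained a call, and 95 changed sign with no call under either setting. *Rsad2*, *Cmpk2* and *Ifi44* had errors above 0.8 on the log2 scale in every comparison.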
